A study of Mus musculus with 21 samples.

Results

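The genes described here are 32 mouse genes of cholesterol and fatty acid synthesis, known targets or regulators of the sterol regulatory element binding proteins (SREBPs). They were chosen by symbol from pathway knowledge, and all 32 were found among the 26852 genes of the deposited expression table. The study asked how human acute myeloid leukemia changes the mesenchymal niche of mouse bone marrow at early and late stages of engraftment. RNA was sequenced from Nes-low mesenchymal cells, sorted by GFP from Nestin-GFP NSG mice after bead depletion of human and murine hematopoietic cells and a stain for CD45, Ter119 and CD31. The leukemic cells were HL60 or ML1, both established human AML cell lines, infected to express sLP-mCherry, a secreted lipid-permeable mCherry under a mouse PGK promoter that neighbouring cells take up. Ch+ and ch- cells therefore differ by uptake of a leukemia-derived protein and not by an engineered change in the stromal cells.

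The table held 21 libraries in 7 groups of 3. The ctrl group came from unengrafted Nestin-GFP NSG mice and is shared by both lines, so that every comparison with ctrl rests on the same 3 libraries. The other groups came from unconditioned Nestin-GFP NSG mice that received HL60 or ML1 cells at 8 to 12 weeks of age. At the early time point, with low engraftment, Nes-low cells were divided into cherry-positive cells close to the leukemia (early ch+) and cherry-negative cells from the same marrows (early ch-). At the late time point, with heavy engraftment, Nes-low cells were taken with no marker (late). The treatment field of the 3 ML1 late libraries reads unengrafted, against their title and time point, and they are treated here as late ML1 libraries. The extraction text in the labels speaks of sorted CD31+ endothelial cells, against the source and cell type given for the same libraries, which are treated here as Nes-low mesenchymal cells. The NSG host lacks lymphocytes, and both leukemias are established cell lines, which limits them as models of disease in patients. The labels name no separate animals, so the p-values measure the spread between these libraries, which may be technical.

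Cells make cholesterol from acetyl-CoA through mevalonate and squalene, then through lanosterol, and make fatty acids from the same precursor through malonyl-CoA. SREBP2, the product of Srebf2, mainly drives the sterol genes and SREBP1, the product of Srebf1, mainly the fatty acid genes. Both precursors are held in the endoplasmic reticulum by SCAP and INSIG when sterols are plentiful, and move to the Golgi for cleavage when sterols fall. In marrow, Nes-low stromal cells overlap with CXCL12-abundant reticular cells, which carry a program related to that of adipocyte precursors.

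The authors' regularized values were read as log2, so that a difference of 1 is a doubling or halving of the estimated count. The published methods name a log10 transformation instead, which a highest value of 22.44 does not allow for a read count. Such values do not give the sequencing depth of each library. A gene was called when its Benjamini-Hochberg adjusted p from limma, over the 12976 genes with a mean of at least 10 on the linear scale, was under 0.1. All 32 members passed that filter. Fewer cells of a type and less RNA per cell cannot be told apart in these bulk samples.

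The labelled cell type was checked first. Cxcl12, the defining chemokine of these stromal cells, ran from 14.89 to 15.57 in ctrl and from 15.95 to 16.44 in late. Of 8 mesenchymal markers 6 were called higher and 1 lower in late than in ctrl, 4 higher in early ch+ than in ctrl, and 4 higher and 1 lower in late than in early ch+. Other cell types moved with the groups, and their part in the results on the members was not tested. All 7 red cell markers were called higher in early ch+ and in early ch- than in ctrl (median log2 fold change 4.02 and 3.96), 4 were lower in late than in ctrl and 7 lower in late than in early ch+. Hbb-bs, a beta globin and the most abundant of them, had a median of 7.73 in ctrl, 11.76 in early ch-, 11.90 in early ch+ and 4.63 in late. The summed linear level of these 7 markers was 330 to 697 in ctrl, 5094 to 10242 in early ch-, 4357 to 12924 in early ch+ and 88.2 to 124 in late. Of 9 blood cell markers 6 were tested, and 6 were called higher in early ch+ and 5 in early ch- than in ctrl, 2 lower in late than in ctrl and 6 lower in late than in early ch+. Ptprc, the gene of CD45, had a median of 2.58 in ctrl, 4.18 in early ch-, 4.88 in early ch+ and 2.44 in late.

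Chondrocyte markers were called lower than in ctrl in early ch+ and in late (9 of 9 each), and lower in early ch+ than in early ch- (9 of 9). Smooth muscle markers were lower in early ch+ than in ctrl (4 of 6, median -2.10) and than in early ch- (4 of 6), lower in late than in ctrl (3 of 6, median -0.97), and higher in late than in early ch+ (3 of 6). Osteoblast markers were lower in late than in ctrl and than in early ch+ (6 of 7 each), and Col1a1, the most abundant of them, had a median of 20.27 in ctrl and 17.52 in late. Of 6 adipocyte markers only Adipoq passed the filter, at a median of 10.71 in ctrl, 11.47 in early ch-, 12.11 in early ch+ and 10.87 in late. It was called higher in early ch+ than in ctrl (1.16) and lower in late than in early ch+ (-1.11), while Lep, Pck1 and Cidec were at the bottom of the scale. Of 7 endothelial markers 6 were tested, and limma called none against ctrl, with 1 in late and 0 in each early group at an unadjusted p under 0.05, but 3 were lower in late than in early ch+ (median -0.81). Of 7 macrophage markers only 2 were tested, of which Vcam1 was higher in late (1.12) and early ch+ (0.78) than in ctrl, and Mrc1 was lower in late than in ctrl (-0.91) and than in early ch+ (-0.90). The untested ones had ctrl medians of -1.47 (C1qa), 0.34 (Adgre1), 1.66 (C1qb), 2.54 (Csf1r) and 2.74 (Cd68), beside 11.51 for Vcam1. The calls of Vcam1 are therefore not read as a change in macrophages. Of 5 skeletal muscle markers 4 were tested, and 4 were called higher in early ch+ than in ctrl (median 2.27), 1 lower in late than in ctrl and 4 lower in late than in early ch+. Of 8 proliferation markers 7 were tested, and 1, Mki67, was higher in early ch+ than in ctrl (0.99), 2 were lower in late than in ctrl, and 3 were lower in late than in early ch+ (median -0.72, with 7 of 7 negative).

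The late libraries also differed in scale. In units of mega-counts, back-transformed values summed to 11.9 to 14.2 in ctrl, 12.3 to 14.7 in early ch-, 11.2 to 12.6 in early ch+ and 7.26 to 9.02 in late. Rescaling each library to the same sum moved the median of all genes in late against ctrl from 0.02 to 0.71, and that of late against early ch+ from 0.02 to 0.63. A library sum is weighted towards the most abundant genes, and the median of Col1a1 was 20.27 in ctrl and 17.52 in late. Where such genes fall, the sum falls, and rescaling raises the other genes. The part of such genes in the shift was not tested, so a call that ends after rescaling may reflect them. Rescaling adds 1 constant to each library, so it cannot show how the members stand among other genes. It called 15 members in late against ctrl, 14 higher, where 60.0% of all genes were, and 1 lower, where 3.98% were. Counts of members in late after rescaling therefore include the shift of all genes. Of the 9 called on the authors' scale, 3 kept their call: Hmgcs1 (1.42), Fads1 (1.19) and Scd1 (-0.47). The fold changes that follow are on the authors' scale.

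In late against ctrl, 2 of 32 members were called higher, where 10.2% of all tested genes were, and 7 were called lower, where 11.4% were. The members called higher were Hmgcs1 and Fads1. Those called lower were Scd1, Scd2, Fasn, Me1, Fads2, Srebf1 and Insig1. The members' median log2 fold change was -0.01, beside 0.02 for all genes, with 16 positive and 16 negative values. That balance depends on the scaling, since after rescaling to library sums the median was 0.69, beside 0.71 for all genes, and 26 of 32 values were positive. The groups did not overlap for 7 members, 1 higher and 6 lower (21.9% of members, beside 19.1% of all genes). Of the 7 members called lower, 5 belong to fatty acid synthesis and desaturation. Without the filter on low values the calls of Fasn, Fads1 and Insig1 ended, with limma adjusted p of 0.113, 0.113 and 0.119. With the late group limited to HL60, a choice made after seeing the data, those of Hmgcs1 (0.62), Fads2 (-0.50), Srebf1 (-0.67) and Insig1 (-0.41) ended.

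The lines were then taken apart. In HL60 late against ctrl, 1 member was called higher (6.46% of all genes) and 4 lower (7.24%). In ML1 late against ctrl, 1 member was called higher (9.89% of all genes) and 6 lower (12.1%). Rescaling to library sums turned that balance for all genes alike, with 9 members called in HL60 late, all higher (39.7% of all genes), and 17 higher (63.0%) and 2 lower (4.70%) in ML1 late. Scd1, Scd2 and Me1 were called lower in both lines on the authors' scale. After rescaling none of these 3 was called in HL60 late (-0.35, -0.23 and -0.48), and in ML1 late Scd2 (-0.23, limma adjusted p = 0.381) and Me1 (-0.03, limma adjusted p = 0.939) were not. Fasn and Fads1 passed the test in HL60, and Hmgcs1, Insig1, Srebf1 and Fads2 in ML1. Only for Fads2 did the lines themselves differ by test in late, where 4.09% of all genes were called in either direction. Scd1 had an unadjusted p of 0.0124 there and a limma adjusted p of 0.209.

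Against early ch+, late cells had 4 members called higher (8.79% of all genes) and 4 lower (10.9%). The higher ones were Stard4, Cyp51, Srebf2 and Fads1, and the lower ones Me1, Scd1, Srebf1 and Insig1. The members' median was 0.17, beside 0.02 for all genes, with 22 positive and 10 negative values. The groups did not overlap for 2 members, Scd1 and Me1, both lower in late (6.25% of members, 8.75% of all genes). Without the filter the calls of Cyp51, Srebf2 and Srebf1 ended, with limma adjusted p between 0.158 and 0.165. With the late group limited to HL60 those of Stard4 (0.81), Cyp51 (0.64), Srebf2 (0.45), Srebf1 (-0.40) and Insig1 (-0.34) ended, and after rescaling to library sums 23 members were called higher (65.1% of all genes) and 1, Me1, lower (-0.44, 4.53%), with a median of 0.78 beside 0.63 for all genes.

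In early ch+ against ctrl, no member was called higher (3.41% of all genes) and 1, Lss, was called lower (2.75%), and 6 members had an unadjusted p under 0.05 (16.8% of all genes). The count depended on the fit, with 4 members called lower in the 7-group fit and 2 with a mean of at least 6. No share of all genes is given for either setting, so neither count shows an excess of members. The members' median was -0.25, beside 0.01 for all genes, and 26 of 32 values were negative, 23 after rescaling to library sums. Fasn, Scd2 and Fads2 were lower in all 6 early ch+ libraries than in any ctrl library (9.38% of members, 8.06% of all genes). In early ch- against ctrl, limma called 0 of 32 members (1.92% of all genes in either direction), and 4 had an unadjusted p under 0.05 (11.9%). In early ch+ against early ch-, limma called 0 members, where 3.58% of all genes were called higher and 2.68% lower, and 1 member, Scd2, had an unadjusted p under 0.05 (15.4%). No member separated the groups in either of these comparisons, beside 5.7% and 3.01% of all genes. The labels name no pairs, so ch+ and ch- libraries were compared as unpaired, although the cells came from the same marrows.

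By line, HL60 early ch+ against ctrl had 0 members called by limma (5.33% of all genes) and 4 at an unadjusted p under 0.05 (15.6%), and HL60 early ch- against ctrl had 0 (1.57%) and 5 (10.7%). HL60 early ch+ against early ch- had 0 (3.92%) and 2 (12.5%). ML1 early ch+ against ctrl had 2 members called lower, Lss and Stard4, beside 418 of 12976 genes (6.69% of all genes in either direction). In that comparison 8 members had an unadjusted p under 0.05 (16.3% of all genes). ML1 early ch- against ctrl had 0 called (2.34%) and 7 at an unadjusted p under 0.05 (12.7%), and ML1 early ch+ against early ch- had 0 (4.25%) and 2 (13.8%). Between the lines, limma called 0 members in early ch+ (0.0154% of all genes), with 3 at an unadjusted p under 0.05 (7.61%), and 0 in early ch- (0.0539%), with 6 (6.82%).

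**Figure D1:**
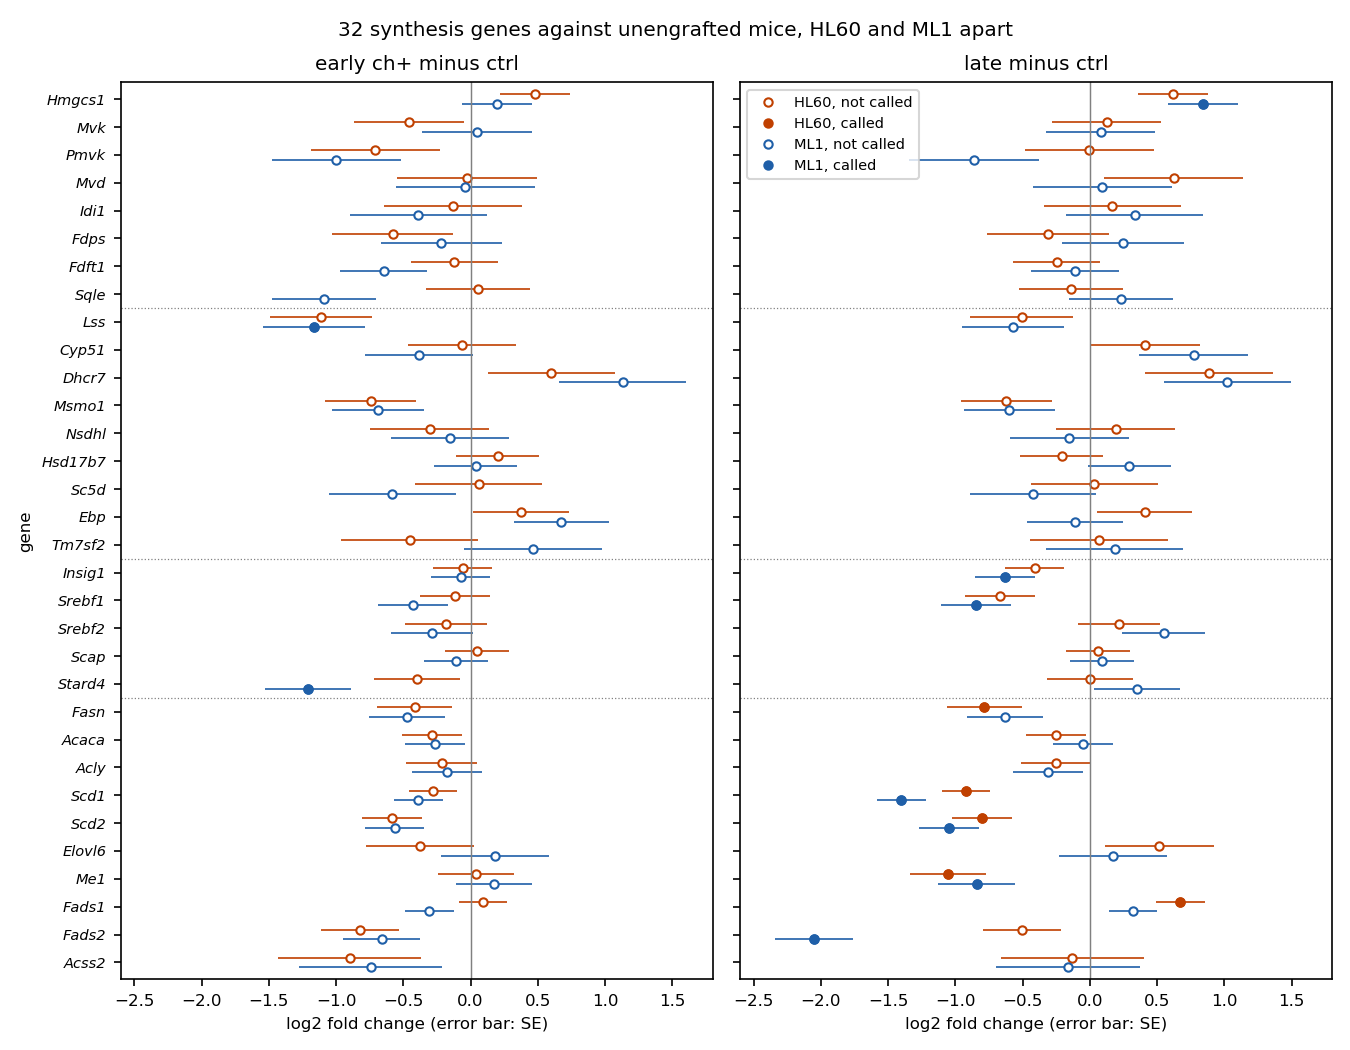
Log2 fold change of the 32 genes against ctrl (x axis, bars give the standard error), with early ch+ on the left and late on the right, HL60 in orange and ML1 in blue, filled where called, and dotted lines between the pathway arms. In late, Scd1, Scd2 and Me1 are filled on the negative side in both lines, and Fads2 lies at -2.05 in ML1 and -0.50 in HL60.

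Fatty acid synthesis and desaturation held 10 members. In late against ctrl 1 was called higher (10.2% of all genes) and 5 lower (11.4%), with a median of -0.49. After rescaling to library sums 3 were called higher (60.0% of all genes) and 1 lower (3.98%), with a median of 0.20 beside 0.71. By line the median was -0.38 in HL60 late and -0.47 in ML1 late. The mean level of the arm was 8.77 ± 0.16 in ctrl, 8.44 ± 0.15 in HL60 early ch-, 8.40 ± 0.18 in HL60 early ch+ and 8.42 ± 0.11 in HL60 late (SD, n = 3 each). With ML1 it was 8.55 ± 0.19 in early ch-, 8.45 ± 0.15 in early ch+ and 8.17 ± 0.14 in late. In HL60 the arm's mean in late thus lay between those of the early groups.

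Scd1 encodes stearoyl-CoA desaturase 1, which places the double bond in oleate and palmitoleate (ENSMUSG00000037071, minus strand, chr19:44394455-44407879, mm10). Its level was 11.25, 11.06 and 11.26 in ctrl, 11.16, 11.05 and 10.78 in HL60 early ch-, 10.24, 10.85 and 11.26 in ML1 early ch-, 11.16, 10.75 and 10.81 in HL60 early ch+, and 10.92, 10.64 and 10.84 in ML1 early ch+. In late it was 10.39, 10.20 and 10.21 with HL60 and 9.85, 9.65 and 9.86 with ML1. All 6 late libraries lay below every ctrl and every early ch+ library, and the ML1 late libraries lay below the HL60 ones. The log2 fold change in late against ctrl was -1.16 ± 0.18 (SE, limma adjusted p = 1.79e-05, lower in 6 of 6 libraries), with -0.92 in HL60 and -1.40 in ML1. Against early ch+ it was -0.83 ± 0.15 (limma adjusted p = 9.45e-05). Late was not tested against early ch-, where an ML1 library at 10.24 lay below an HL60 late library at 10.39. The pooled call against ctrl held under each alternative tried, whereas rescaling to library sums gave -0.21 against early ch+ and -0.35 in HL60 late against ctrl, neither called.

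Scd2, the paralog that lies beside Scd1 on chromosome 19, is the main stearoyl-CoA desaturase of many tissues outside the liver. It ran from 10.28 to 10.68 in ctrl, from 9.80 to 10.77 in early ch- (median 10.23), from 9.74 to 10.11 in early ch+ (median 9.92) and from 9.08 to 10.22 in late (median 9.59). Late and early ch+ libraries all lay below the ctrl range, while early ch- overlapped it. In late against ctrl the log2 fold change was -0.93 ± 0.20 (limma adjusted p = 0.000999), -0.80 in HL60 and -1.05 in ML1, and the pooled value was -0.23 and not called after rescaling to library sums (limma adjusted p = 0.330). In early ch+ against ctrl it was -0.58 ± 0.20, just outside the threshold (limma adjusted p = 0.107). Reads that match both Scd genes were apportioned by the authors' counting, so the split between the pair is uncertain. Without HL60 late 398 the HL60 value was -0.59 and no longer called (limma adjusted p = 0.151).

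Fasn encodes fatty acid synthase, which builds palmitate. It ran from 9.09 to 9.40 in ctrl, 8.06 to 9.46 in early ch-, 8.56 to 9.03 in early ch+ and 8.15 to 9.11 in late, where 5 of 6 libraries were below every ctrl library. Its difference was -0.71 ± 0.24 in late against ctrl (limma adjusted p = 0.0404), -0.78 in HL60 (0.0747) and -0.63 in ML1 (0.132). Rescaling to library sums left -0.01 in late against ctrl (limma adjusted p = 0.965) and -0.21 in HL60 late (limma adjusted p = 0.574), neither called. Leaving out ctrl 375 gave -0.63 in the pooled comparison and ended the call (limma adjusted p = 0.155). In HL60 the call also ended without ctrl 373 (-0.79), ctrl 375 (-0.70), HL60 late 397 (-0.82) or HL60 late 398 (-0.63), with adjusted p between 0.125 and 0.289 from limma, as well as without the filter (limma adjusted p = 0.259) and with quantile normalization (-0.73, limma adjusted p = 0.110).

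Me1 encodes cytosolic malic enzyme, a source of NADPH for lipid synthesis (ENSMUSG00000032418, minus strand, chr9:86581371-86695953). Its level was 8.46, 7.44 and 8.12 in ctrl, 7.34, 7.17 and 7.75 in HL60 early ch-, 8.30, 8.20 and 7.94 in ML1 early ch-, 7.97, 8.35 and 7.83 in HL60 early ch+, and 7.75, 8.33 and 8.47 in ML1 early ch+. Late libraries read 6.86, 6.59 and 7.41 with HL60 and 6.93, 7.27 and 7.30 with ML1. Every late library lay below every ctrl and early ch+ library, although ctrl 374 stood close to HL60 late 399. Late Me1 differed by -0.95 ± 0.27 from ctrl (limma adjusted p = 0.0118) and by -1.06 ± 0.22 from early ch+ (limma adjusted p = 0.000604), lower in 6 of 6 libraries in both. By line it was -1.05 in HL60 late and -0.84 in ML1 late against ctrl. After rescaling to library sums the pooled value against ctrl was -0.26 and not called (limma adjusted p = 0.421), and that against early ch+ was -0.44 and still called. Without ctrl 373 the pooled value was -0.72 and not called (limma adjusted p = 0.117), and the ML1 call ended without ctrl 373 (-0.61), ctrl 375 (-0.79) or ML1 late 581 (-0.73).

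Fads1 and Fads2 encode the delta-5 and delta-6 desaturases of polyunsaturated fatty acid synthesis and lie next to each other in opposite orientation on chromosome 19. Fads1 (ENSMUSG00000010663, plus strand, chr19:10182888-10196877) had levels of 9.71, 9.64 and 9.02 in ctrl, 9.49, 9.50 and 9.53 in HL60 early ch-, 9.28, 9.04 and 9.45 in ML1 early ch-, 9.48, 9.52 and 9.64 in HL60 early ch+, and 9.43, 8.95 and 9.06 in ML1 early ch+. In late it was 10.24, 10.03 and 10.11 with HL60 and 9.79, 9.61 and 9.93 with ML1. HL60 late lay above every other group, and ML1 late overlapped ctrl through the library at 9.61. Fads1 rose by 0.50 ± 0.18 on the log2 scale in late against ctrl (limma adjusted p = 0.0575), 0.67 in HL60 and 0.32 in ML1, and 0.60 ± 0.15 against early ch+ (limma adjusted p = 0.00353, above the early ch+ mean in 6 of 6 libraries and above every early ch+ library in 5). The call against ctrl rested on single libraries: without ctrl 375, which was low, it was 0.28 (limma adjusted p = 0.415), and without HL60 late 397 it was 0.44 (0.111). In HL60 it was 0.45 without ctrl 375 (limma adjusted p = 0.138), whereas the call against early ch+ held without any single library.

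Fads2 (ENSMUSG00000024665, minus strand, chr19:10062765-10101746) moved the other way. Its level was 8.68, 8.54 and 8.50 in ctrl, 8.15, 7.70 and 8.35 in HL60 early ch-, 7.65, 8.54 and 8.05 in ML1 early ch-, 8.05, 7.56 and 7.65 in HL60 early ch+, and 8.03, 7.33 and 8.37 in ML1 early ch+. Late libraries read 8.50, 7.85 and 7.85 with HL60 and 6.63, 6.12 and 6.82 with ML1. The ML1 late libraries were the lowest of all 21, and HL60 late lay within the range of the early groups. The pooled log2 fold change in late against ctrl was -1.28 ± 0.35 (limma adjusted p = 0.00942), made up of -0.50 ± 0.29 in HL60 (limma adjusted p = 0.335) and -2.05 ± 0.29 in ML1 (limma adjusted p = 2.66e-06). After rescaling to library sums the pooled value was -0.58 and not called (limma adjusted p = 0.123). The lines differed in late by 1.54 ± 0.29, HL60 above ML1 (limma adjusted p = 0.000759), and this difference kept its call under each alternative tried. In early ch+ against ctrl the value was -0.74 ± 0.35 (limma adjusted p = 0.274), below every ctrl library in 6 of 6 libraries.

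**Figure D2:**
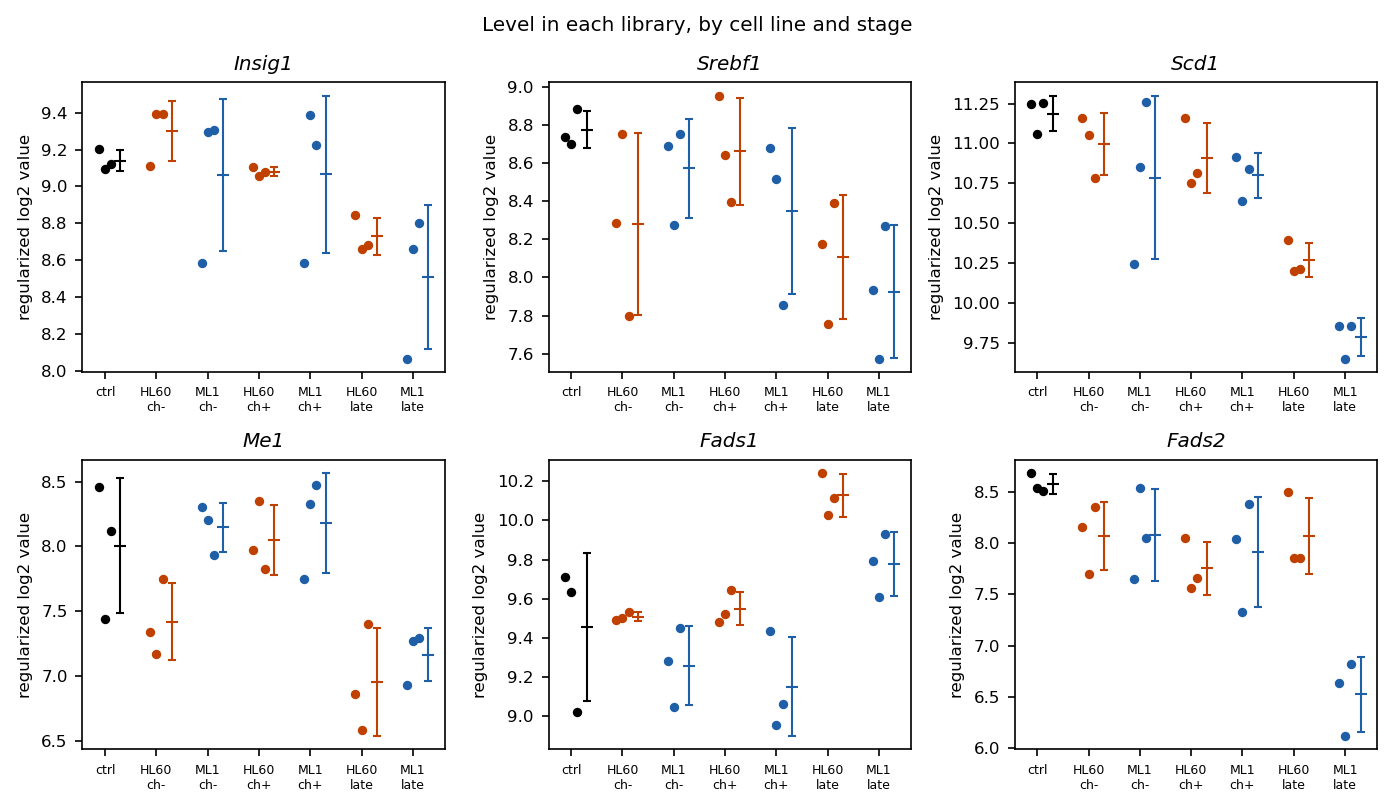
Regularized log2 value (y axis) of 6 genes in each of the 21 libraries by group (x axis), with points for libraries and bars for the mean ± SD of 3, black for ctrl, orange for HL60 and blue for ML1. The group means of Scd1 and Me1 are lowest and those of Fads1 highest in late, and Fads2 in ML1 late lies between 6.12 and 6.82.

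The other 4 members of the fatty acid arm were called in no comparison on the authors' scale. Acaca, the acetyl-CoA carboxylase that makes malonyl-CoA, ran from 8.14 to 9.41 over all libraries (median 8.53), and its late-against-ctrl difference was -0.15. Acly, the ATP citrate lyase that supplies cytosolic acetyl-CoA, ran from 7.47 to 9.24 and had -0.28. Elovl6, an elongase of palmitate, ran from 6.05 to 8.35 and had 0.35. Acss2, which activates acetate, ran from 4.18 to 6.98 and had -0.15 in late and -0.82 in early ch+. In late against ctrl after rescaling, Acaca (0.54, limma adjusted p = 0.0395) and Elovl6 (1.04, limma adjusted p = 0.0142) were called higher, and Acly (0.41) and Acss2 (0.55) were not called.

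The control arm held the 2 SREBP genes, their escort Scap, their retention factor Insig1 and the sterol carrier Stard4. In late against ctrl, 2 of 5 were called lower (11.4% of all genes) and none higher (10.2%), with a median of 0.08. Against early ch+, 2 were called higher (8.79% of all genes) and 2 lower (10.9%). After rescaling to library sums, 3 were called higher and none lower in both comparisons, where 60.0% and 65.1% of all genes were called higher.

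Insig1 holds the SCAP-SREBP complex in the endoplasmic reticulum and is itself an SREBP target (ENSMUSG00000045294, plus strand, chr5:28071363-28078662). Its level was 9.20, 9.10 and 9.12 in ctrl, 9.11, 9.39 and 9.39 in HL60 early ch-, 8.59, 9.29 and 9.31 in ML1 early ch-, 9.11, 9.06 and 9.08 in HL60 early ch+, and 8.58, 9.39 and 9.23 in ML1 early ch+. Late libraries read 8.84, 8.66 and 8.68 with HL60 and 8.07, 8.66 and 8.80 with ML1. All late libraries lay below ctrl, and 1 library each of ML1 early ch- and ML1 early ch+ lay as low. Late Insig1 had a log2 fold change of -0.52 ± 0.19 against ctrl (limma adjusted p = 0.0642) and -0.45 ± 0.16 against early ch+ (limma adjusted p = 0.0477), and both turned positive, to 0.17 and 0.16, when libraries were rescaled to the same sum. By line it was -0.41 in HL60 late and -0.63 in ML1 late against ctrl, the latter 0.19 after rescaling. The call against ctrl ended without ctrl 373 (-0.49), ctrl 374 (-0.54), ctrl 375 (-0.53) or ML1 late 581 (-0.41), with limma adjusted p between 0.124 and 0.166, and with quantile normalization (-0.46, limma adjusted p = 0.109). Against early ch+ it ended without ML1 early ch+ 539 (-0.39) or ML1 late 581 (-0.34), and the ML1 call ended without ML1 late 581 (-0.41), without ctrl 373 (-0.60) or without the filter (limma adjusted p = 0.107).

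Srebf1 (ENSMUSG00000020538, minus strand, chr11:60199089-60222581) had levels of 8.74, 8.70 and 8.88 in ctrl, 8.29, 8.76 and 7.80 in HL60 early ch-, 8.69, 8.28 and 8.76 in ML1 early ch-, 8.95, 8.64 and 8.39 in HL60 early ch+, and 8.68, 8.52 and 7.85 in ML1 early ch+. In late it was 8.18, 7.75 and 8.39 with HL60 and 7.94, 7.57 and 8.27 with ML1. Late libraries were all below ctrl but overlapped both early groups. The log2 fold change in late was -0.76 ± 0.23 against ctrl (limma adjusted p = 0.0209, lower in 6 of 6 libraries), and without any single library it kept its call. That call ended after rescaling to library sums (-0.07, limma adjusted p = 0.813) and with the late group limited to HL60 (-0.67, limma adjusted p = 0.128). By line it was -0.67 in HL60 (limma adjusted p = 0.112) and -0.85 in ML1 (0.0205), and the ML1 value was -0.67 and not called without ML1 late 582 (0.137), and -0.03 after rescaling (0.913). Against early ch+ it was -0.49 ± 0.19 (limma adjusted p = 0.0798) and turned to 0.13 after rescaling to library sums, and with quantile normalization it was -0.46 and not called (limma adjusted p = 0.101). The call against early ch+ ended without any of HL60 early ch+ 523 (-0.40), HL60 early ch+ 524 (-0.46), ML1 early ch+ 538 (-0.46), ML1 early ch+ 539 (-0.49), HL60 late 398 (-0.44), ML1 late 581 (-0.47) or ML1 late 582 (-0.40).

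Srebf2 did not follow Srebf1. It ran from 8.00 to 8.86 in ctrl, 8.23 to 8.95 in early ch- (median 8.61), 7.57 to 8.93 in early ch+ (median 8.13) and 8.18 to 9.40 in late (median 8.91), so that all groups overlapped. Its log2 fold change in late was 0.38 ± 0.27 against ctrl (limma adjusted p = 0.397) and 0.62 ± 0.22 against early ch+ (limma adjusted p = 0.058, higher than the early ch+ mean in 5 of 6 libraries). The latter call ended without any of HL60 early ch+ 524 (0.49), ML1 early ch+ 538 (0.56), ML1 early ch+ 539 (0.53), HL60 late 397 (0.57), ML1 late 581 (0.57) or ML1 late 583 (0.51). Scap was not called on the authors' scale and ran from 7.57 to 8.75 over all libraries, with 0.08 in late against ctrl. After rescaling it was called higher against ctrl (0.77) and against early ch+ (0.72), as was Srebf2 (1.08 and 1.23).

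Stard4 carries cholesterol between membranes. It ran from 6.34 to 7.13 in ctrl, 5.98 to 7.05 in early ch-, 5.38 to 6.95 in early ch+ and 6.71 to 7.46 in late. ML1 early ch- read 6.04, 5.98 and 6.03 and ML1 early ch+ 5.88, 5.69 and 5.38, all below ctrl. HL60 early ch- read 6.89, 7.05 and 7.04 and HL60 early ch+ 6.39, 6.04 and 6.95, of which 1 lay below every ctrl library. The log2 fold change in ML1 early ch+ against ctrl was -1.21 ± 0.32 (limma adjusted p = 0.0228), and without ctrl 374 it was -1.08 (0.101). The difference between the lines, HL60 above ML1, was 0.81 in early ch+ (limma adjusted p = 0.558) and 0.98 in early ch- (limma adjusted p = 0.449), neither past the threshold. Late against early ch+ was 0.98 ± 0.27 (limma adjusted p = 0.011, above the early ch+ mean in 6 of 6 libraries and above every early ch+ library in 4), which held without any single library, while late against ctrl was 0.18 (limma adjusted p = 0.802). After rescaling to library sums these were 1.60 and 0.87 (limma adjusted p = 0.0453 for the latter). Both were called higher, as 65.1% and 60.0% of all genes were.

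The mevalonate and squalene arm held 8 members. In late against ctrl 1 was called higher (10.2% of all genes) and none lower (11.4%), with a median of 0.07. The member called was Hmgcs1, the HMG-CoA synthase that forms HMG-CoA from acetoacetyl-CoA. It ran from 7.56 to 7.71 in ctrl, 7.55 to 8.41 in early ch- (median 8.22), 7.55 to 8.47 in early ch+ (median 7.98) and 8.11 to 8.69 in late (median 8.33). The 6 late libraries all lay above ctrl, and both early groups spanned the gap. Its log2 fold change in late against ctrl was 0.73 ± 0.23 (limma adjusted p = 0.0244), 0.62 in HL60 (limma adjusted p = 0.147) and 0.84 in ML1 (limma adjusted p = 0.0212). Without ML1 late 583 the ML1 value was 0.74 (0.104).

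The other 7 members of this arm were called in no comparison on the authors' scale. Their log2 fold changes in late against ctrl were 0.10 for Mvk (mevalonate kinase), -0.43 for Pmvk (phosphomevalonate kinase), 0.36 for Mvd (mevalonate diphosphate decarboxylase), 0.25 for Idi1 (isopentenyl diphosphate isomerase), -0.03 for Fdps (farnesyl diphosphate synthase), -0.18 for Fdft1 (squalene synthase) and 0.05 for Sqle (squalene epoxidase). Over all libraries Mvk ran from 5.10 to 6.80, Pmvk from 3.62 to 6.46, Mvd from 2.80 to 5.11, Idi1 from 4.62 to 7.42, Fdps from 5.15 to 7.29, Fdft1 from 6.86 to 8.64 and Sqle from 5.78 to 8.61. In late against ctrl, rescaling to library sums called 4 of the 8 members of the arm higher, where 60.0% of all genes were. Their median was then 0.77 over the arm, 0.05 above that of all genes, and Mvk (0.79), Mvd (1.05) and Idi1 (0.94) were among those called. Against early ch+, all 8 members of the arm had positive values, from 0.20 to 0.56 with a median of 0.39, and limma called none of them, with 1 at an unadjusted p under 0.05 (25.9% of all genes). After rescaling to library sums all 8 were called higher, as were 65.1% of all genes (median 1.01, beside 0.63). Sqle was the member of the arm with the widest gap between lines in early ch+, with HL60 above ML1 by 1.15 ± 0.39 (unadjusted p = 0.00592, limma adjusted p = 0.538).

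Of the 9 members from lanosterol to cholesterol, none was called in late against ctrl by limma, 1 had an unadjusted p under 0.05 (27.6% of all genes), and the median was 0.04. Rescaling to library sums called 4 higher, beside 60.0% of all genes, with a median of 0.73 beside 0.71. Lss, lanosterol synthase, ran from 6.75 to 7.85 in ctrl, 6.16 to 6.95 in early ch-, 5.74 to 6.79 in early ch+ (median 5.94) and 6.22 to 7.54 in late. Early ch+ overlapped ctrl only through the HL60 library at 6.79. The log2 fold change in early ch+ against ctrl was -1.14 ± 0.31 (limma adjusted p = 0.0323, below the ctrl mean in 6 of 6 libraries), with -1.11 in HL60 (limma adjusted p = 0.114) and -1.16 in ML1 (limma adjusted p = 0.079). Without ctrl 374, which was high, the pooled value was -0.83 and not called (limma adjusted p = 0.247). The ML1 call ended without ctrl 373 (-1.24), ctrl 374 (-0.85), ML1 early ch+ 538 (-1.15) or ML1 early ch+ 541 (-1.02), without the filter (limma adjusted p = 0.159) and after rescaling (-1.11, limma adjusted p = 0.121). In late it was -0.54 against ctrl (limma adjusted p = 0.276).

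Cyp51, the lanosterol demethylase, ran from 6.63 to 7.39 in ctrl, 5.74 to 7.76 in early ch-, 5.58 to 7.62 in early ch+ and 7.08 to 7.84 in late. The early groups were wide and held the lowest libraries, both with ML1. Its difference was 0.82 ± 0.30 in late against early ch+ (limma adjusted p = 0.0653, above the early ch+ mean in 6 of 6 libraries) and 0.59 ± 0.37 against ctrl (limma adjusted p = 0.319). The call ended without any of HL60 early ch+ 523 (0.75), ML1 early ch+ 538 (0.57), ML1 early ch+ 539 (0.80), ML1 late 581 (0.79), ML1 late 582 (0.77) or ML1 late 583 (0.78). After rescaling to library sums Cyp51 was 1.28 against ctrl (limma adjusted p = 0.00719) and 1.43 against early ch+. Both were called higher, as 60.0% and 65.1% of all genes were.

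The remaining 7 sterol enzymes were called in no comparison on the authors' scale. Dhcr7, the last reductase of the pathway, ran from 4.95 to 7.44 and had 0.95 ± 0.42 in late against ctrl (unadjusted p = 0.0298, limma adjusted p = 0.127) and 0.87 in early ch+, and the late value was 1.65 and called after rescaling (limma adjusted p = 0.00242). Msmo1, a sterol C4-methyl oxidase, ran from 5.96 to 7.45 and lay on the negative side in each stage, with -0.70 in early ch-, -0.72 in early ch+ and -0.61 in late against ctrl (limma adjusted p = 0.337, 0.212 and 0.183), the last 0.08 after rescaling. Nsdhl, a sterol dehydrogenase of C4 demethylation, ran from 4.92 to 7.44 and Hsd17b7, the ketoreductase of the same complex, from 6.33 to 7.87, with 0.02 and 0.04 in late. Sc5d, a sterol desaturase, ran from 4.45 to 6.85, Ebp, a sterol isomerase, from 5.05 to 6.44, and Tm7sf2, a sterol C14-reductase, from 3.28 to 5.58, with -0.20, 0.15 and 0.13 in late.

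**Figure D3:**
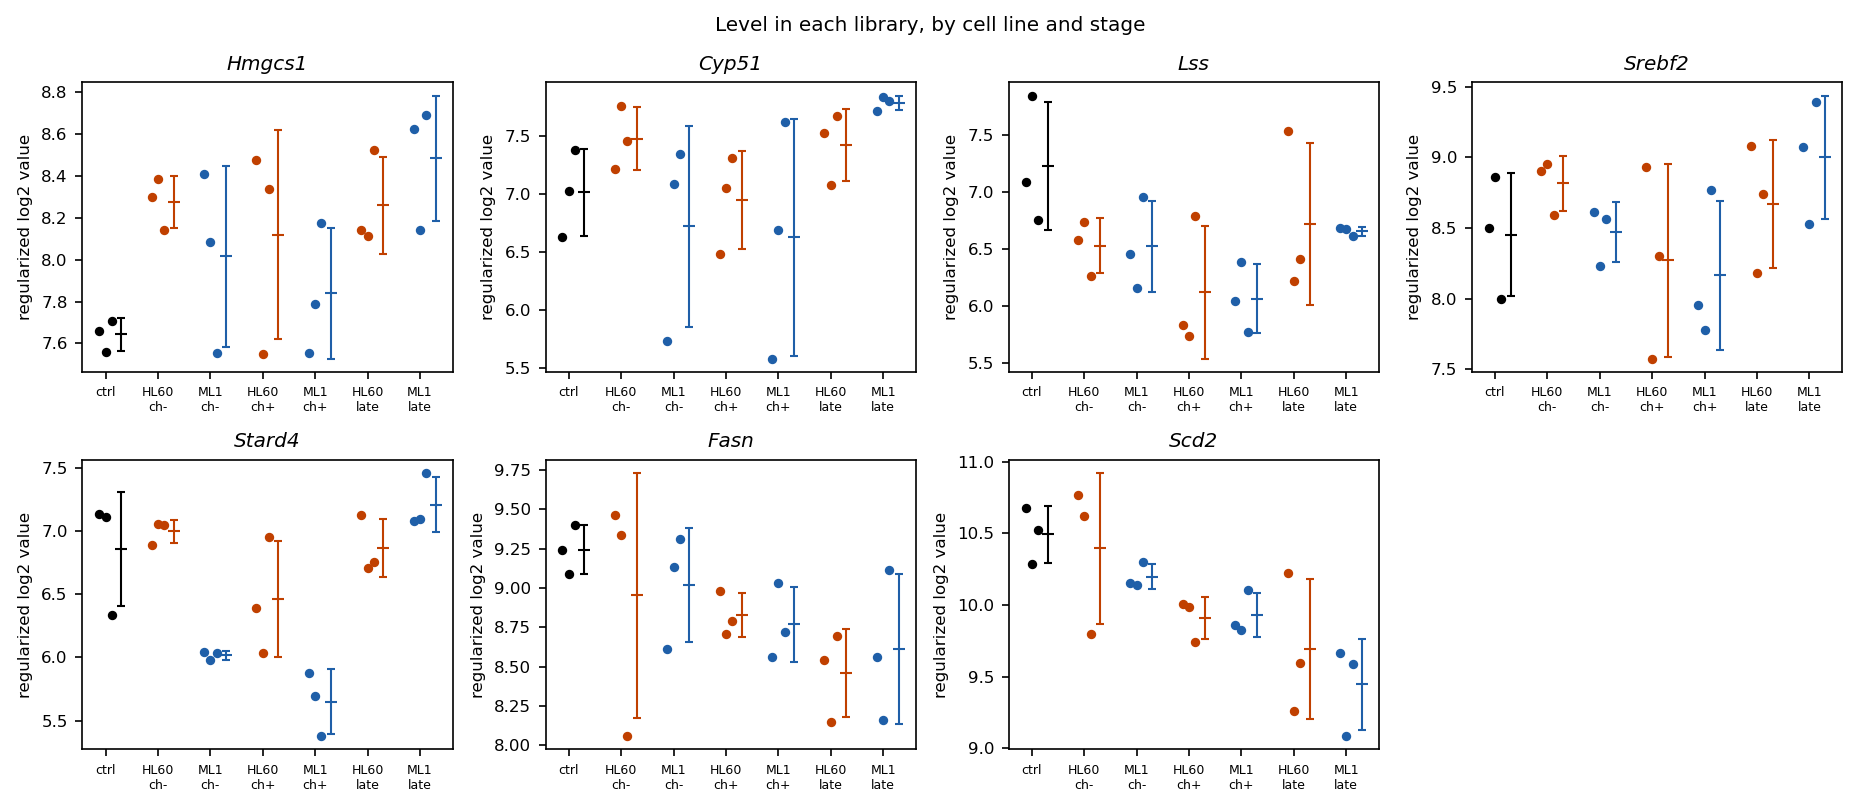
Regularized log2 value (y axis) of 7 of the 8 genes called in a single pooled comparison, all but Fads2, in each of the 21 libraries by group (x axis), with points for libraries and bars for the mean ± SD of 3, black for ctrl, orange for HL60 and blue for ML1. Hmgcs1 lies between 8.11 and 8.69 in late, above all ctrl libraries, and Lss is lowest in early ch+.

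Neighbouring pathways were counted in the same fit. Among all tested genes, 10.2% were called higher and 11.4% lower in late against ctrl, 8.79% and 10.9% in late against early ch+, 3.41% and 2.75% in early ch+ against ctrl, 3.58% and 2.68% in early ch+ against early ch-, and 1.92% in either direction in early ch- against ctrl. An unadjusted p under 0.05 was reached by 11.9% in early ch- against ctrl, 16.8% in early ch+ against ctrl and 15.4% between the early groups. No list was tested against those shares. Of 7 other cholesterol synthesis enzymes none was called higher and 1 lower in late against ctrl, namely Cyb5r3, a reductase that feeds electrons to sterol enzymes (-0.44 ± 0.12). It was higher in early ch+ than in early ch- (0.52) and lower in late than in early ch+ (-0.54), and no other gene of that list was called in any of the 5 pooled comparisons. Of 11 regulators of SREBP processing 2 were called higher and 2 lower in late, with Sec23a at -0.94 and Sec24d at -0.76, both coat proteins of the vesicles that leave the endoplasmic reticulum, and Erlin2, a partner of sterol-dependent degradation, at 0.94. Sec23a and Sec24d were also the 2 called lower against early ch+ (-0.73 and -0.52). Ufd1, a degradation cofactor, was called higher in early ch- (0.86) and early ch+ (0.63) against ctrl, and Erlin1 in early ch+ against early ch- (0.90).

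Of 12 genes of cholesterol efflux, storage and LXR action 10 were tested, and 4 were called higher and 1 lower in late against ctrl. Abca1, the cholesterol exporter, fell by 1.61 ± 0.26 on the log2 scale, while Stard3 (1.37) and Nr1h3, the gene of LXR alpha (1.16), were higher. Against early ch+, Abca1 (-1.45) and Abcg1 (-1.17) were lower and Soat1, which esterifies cholesterol, was higher (0.39). Soat1 was also the gene of the list called in early ch+ against ctrl (0.70), none was called in early ch- against ctrl by limma, with 1 at an unadjusted p under 0.05, and Mylip was called lower in early ch+ against early ch- (-0.85).

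Of 18 other genes of fatty acid synthesis, elongation and activation 16 were tested. In late against ctrl 2 were higher and 1 lower, with Elovl7 at -1.77, Acsl5 at 1.14 and Elovl1 at 0.70, and against early ch+ Elovl7 (-2.28) and Tecr (-0.46) were lower. Elovl7 was also lower in early ch- against ctrl (-1.45) and higher in early ch+ against early ch- (1.97), and Acsl5 was higher in early ch+ against ctrl (0.81). Of 6 NADPH supply genes, G6pdx, the entry to the pentose phosphate pathway, was higher in late (0.83) and in early ch+ (0.55) against ctrl, Taldo1 was lower in late (-0.69), and against early ch+ Pgd was higher (0.64) and Idh1 lower (-0.42). None of the 6 was called in early ch- against ctrl or between the early groups by limma, with 1 at an unadjusted p under 0.05 in each. Thus Me1 and G6pdx, which supply the same cofactor, were called in opposite directions in late against ctrl.

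Of 11 glycerolipid synthesis genes 9 were tested. Etnk1 was called higher in late against ctrl (1.02) and against early ch+ (0.96), Chka was higher in early ch- (0.72) and early ch+ (0.81) against ctrl, and Chka (-1.15) and Pcyt1a (-0.48) were lower in late against early ch+. Of 15 fatty acid oxidation genes 14 were tested, and Ppargc1a, a coactivator of oxidative genes, was lower in late against ctrl (-1.95) and against early ch+ (-1.52), while Etfdh was higher in early ch+ than in early ch- (0.62) and lower in late than in early ch+ (-0.57). No gene of that list was called in either early group against ctrl by limma, with 2 at an unadjusted p under 0.05 in each. Of 11 genes of lipid uptake and droplets 9 were tested, and Plin4 (-1.62), Mgll (-1.35) and Pnpla2 (-0.70) were lower in late against ctrl. Plin4 was also lower in early ch+ against ctrl (-1.99), where Lpl was higher (0.78), and against early ch- (-1.41). Late against early ch+ had Plin2 higher (0.71) and Mgll (-1.02) and Lpl (-0.41) lower.

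Promoter sequences were available for 25 of the 32 members as windows of 300 bases around an annotated RefSeq start. Some members had 2 or 3 windows, and a member was counted when any of them held a match. A start can lie inside the gene as GENCODE draws it: the only windows of Acaca, Fads2, Msmo1 and Tm7sf2 had 300, 293, 264 and 300 bases within the gene, and 2 windows each of Dhcr7 and Srebf1 and 1 each of Me1 and Pmvk had all 300. Both strands were searched for the sterol regulatory element core TCACNCCAC, an SREBP-bound E-box form TCACNTGA, the NF-Y box CCAAT and the Sp1 box GGGCGG. The sterol regulatory element core was found in 1 member, Hmgcs1, or 4.0% of members with a window, beside 1.44% of 27025 genes, and the E-box form in none, beside 4.78%. The NF-Y box was found in 21 members (84.0%, beside 41.1% of all genes) and the Sp1 box in 21 (84.0%, beside 38.2%). For Dhcr7, Me1 and Tm7sf2 the NF-Y box was found only in a window wholly inside the gene, and so was the Sp1 box for Srebf1 and Tm7sf2. A match is a description of the letters in these windows and says nothing of binding. The windows of the member with the sterol element, called higher in late, and of 3 members called lower are given 5′ to 3′ on the gene's own strand, with every match in capitals: Hmgcs1 (GRCm38.p6, plus strand, chr13:119690101-119690400), Insig1 (plus strand, chr5:28071162-28071461), Fasn (minus strand, chr11:120824498-120824797) and Fads2 (minus strand, chr19:10101454-10101753).
Hmgcs1: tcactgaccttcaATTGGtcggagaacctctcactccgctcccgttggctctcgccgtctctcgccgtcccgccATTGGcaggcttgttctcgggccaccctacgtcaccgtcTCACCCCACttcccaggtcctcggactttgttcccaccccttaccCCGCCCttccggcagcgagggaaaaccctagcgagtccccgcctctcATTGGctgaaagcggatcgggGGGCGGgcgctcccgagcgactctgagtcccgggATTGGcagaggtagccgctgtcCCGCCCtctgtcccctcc
Insig1: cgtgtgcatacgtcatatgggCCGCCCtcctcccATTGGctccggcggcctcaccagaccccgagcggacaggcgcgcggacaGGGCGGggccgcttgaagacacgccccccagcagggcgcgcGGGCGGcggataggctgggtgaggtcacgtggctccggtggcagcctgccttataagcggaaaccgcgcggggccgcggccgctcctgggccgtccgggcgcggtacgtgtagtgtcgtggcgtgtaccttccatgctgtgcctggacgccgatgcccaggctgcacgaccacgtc
Fasn: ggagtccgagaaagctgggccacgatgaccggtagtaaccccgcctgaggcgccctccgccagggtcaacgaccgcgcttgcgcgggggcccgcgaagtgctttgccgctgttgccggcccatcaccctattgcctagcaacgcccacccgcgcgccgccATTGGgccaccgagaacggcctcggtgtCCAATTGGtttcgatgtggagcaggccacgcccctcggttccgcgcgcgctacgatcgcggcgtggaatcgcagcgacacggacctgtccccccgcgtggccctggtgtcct
Fads2: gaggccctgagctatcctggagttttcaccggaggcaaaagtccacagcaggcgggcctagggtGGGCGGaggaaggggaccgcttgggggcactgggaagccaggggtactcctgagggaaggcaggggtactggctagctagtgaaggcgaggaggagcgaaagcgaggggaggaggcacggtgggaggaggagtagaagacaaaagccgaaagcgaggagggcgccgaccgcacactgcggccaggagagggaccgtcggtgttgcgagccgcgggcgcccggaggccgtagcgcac

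The Hmgcs1 window held 1 sterol element, 4 NF-Y boxes and 3 Sp1 boxes, and the Insig1 window 1 NF-Y box and 3 Sp1 boxes. The Fasn window held 3 NF-Y boxes, of which a pair overlapped on opposite strands, and no Sp1 box, and the Fads2 window held 1 Sp1 box and no NF-Y box. Since the Fads2 window lies almost wholly inside the gene, a box further upstream would not be seen in it. Hmgcs1 and Insig1 both had NF-Y and Sp1 boxes. They were called in opposite directions in late against ctrl on the authors' scale. After rescaling to library sums both values were positive, 1.42 for Hmgcs1 and 0.17 for Insig1, the latter not called.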

How the data were processed

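RNA-seq values of 21 libraries of sorted mouse Nes-low mesenchymal cells were used, 3 in each of 7 groups, grouped by title and time point. The deposited table holds regularized log2 values made by the authors with STAR 2.5.1b on mm10, RSEM 1.2.29 and DESeq2 1.10.1. That DESeq2 version is from the labels, and the published methods name another. The table is named normalized counts and the published methods name log10, but its values run from -2.33 to 22.44 and were read as log2. The table gives no depth per library, so no counting interval is given. Ensembl genes (26852, of which 26686 had a symbol) were matched to symbols with GENCODE. The members and all lists were chosen with earlier results of these data known.

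limma 3.58.1 in R 4.3.3 fitted 4 groups (ctrl, early ch-, early ch+, late) for 5 pooled comparisons and 7 groups for 11 comparisons by line, 16 in all, with a trended prior. Genes with a mean of at least 3.32 (log2 of 10) were tested, 12976 in number, and called at a Benjamini-Hochberg adjusted p under 0.1 over all of them. In the 4-group fit, differences between the lines count as spread. Tables and figures were made with Python 3.11.15, pandas 2.3.3 and matplotlib 3.10.9. All library values are given for the 6 members called in at least 2 pooled comparisons or differing between lines, ranges for the rest. Lists of cell type markers and of neighbouring pathways were counted in the same fits. Promoter motifs were counted on both strands of the RefSeq windows.

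Alternatives were no filter, a mean of at least 6, quantile normalization, rescaling to library sums, a 7-group fit and leaving out each library in turn, and late from HL60 only, chosen after seeing the data. Also chosen after seeing the data, a replicate block matched ch+ and ch- libraries by the order of their title numbers, since the labels name no pairs. No libraries were identical.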

Additional observations from a re-analysis of the deposited data

Results flagged for a closer look

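In 96 groups of 6 libraries, 32 members in 3 stages, 5 held a library whose gap to the nearest of the others, as a share of the range, passed Dixon's 95% critical value. Chance flags about 1 in 20 groups, so 5 of 96 is about the number chance alone gives. Pmvk in HL60 early ch- 528 (ratio 0.659) was 6.46, with the other early ch- libraries between 4.02 and 4.85. Lss in HL60 late 397 (0.644) was 7.54, with the others between 6.22 and 6.69. Cyp51 in ML1 early ch- 543 (0.671) was 5.74, with the others between 7.09 and 7.76, and Insig1 in the same library (0.650) was 8.59, with the others between 9.11 and 9.39. Insig1 in ML1 late 581 (0.762) was 8.07, with the others between 8.66 and 8.84, and without that library the call of Insig1 in late against ctrl ended. The difference between lines was tested by limma, and Fads2 was flagged in late, where HL60 lay above ML1 by 1.54 on the log2 scale. Whether technical or biological differences between the libraries lie behind these values was not tested.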

How the results depend on the processing

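Of 33 calls of members over all comparisons, 9 ended without the filter on low values, 0 with a mean of at least 6, 3 with quantile normalization (Insig1 in late against ctrl, Srebf1 in late against early ch+ and Fasn in HL60 late) and 18 with rescaling to library sums, while the 7-group fit ended 0 of 18 pooled calls. No filter left 5 members called in late against early ch+ and 1 in ML1 early ch+ against ctrl, since more genes entered the adjustment, and a mean of at least 6 gave 2 in early ch+ against ctrl and 1 in HL60 early ch+ against ctrl, since fewer did. Rescaling, which raises every late value by construction because late library sums were smaller, called 15 members in late against ctrl (14 higher, beside 60.0% of all genes, and 1 lower), 24 in late against early ch+ (23 higher, beside 65.1%, and 1 lower), 9 in HL60 late (all higher, beside 39.7%), 19 in ML1 late (17 higher, beside 63.0%, and 2 lower), 1 in ML1 early ch+ and 1 in ML1 early ch- (both lower) against ctrl. It reversed Insig1 in late against ctrl (0.17), late against early ch+ (0.16) and ML1 late against ctrl (0.19), and Srebf1 in late against early ch+ (0.13). The 7-group fit called 4 members in early ch+ against ctrl, all lower, where the cause was not tested. Shares of all genes are given for rescaling only, so counts under the other settings cannot be read as an excess of members. Late from HL60 libraries only, chosen after seeing the data, called 5 members in late against ctrl and 3 in late against early ch+, with fewer samples, and ended 9 of 17 calls. Leaving out each library in turn gave 6 to 10 members called in late against ctrl, 0 to 2 in early ch+ against ctrl, 4 to 9 in late against early ch+, 3 to 6 in HL60 late, 5 to 8 in ML1 late, 0 to 1 in HL60 early ch+ and 0 to 3 in ML1 early ch+ against ctrl. It gave 0 to 1 in HL60 early ch+ against early ch-, in ML1 early ch- against ctrl and in ML1 early ch+ against early ch-, 1 to 2 between the lines in late, and 0 in the remaining comparisons. The labels share no replicate numbers between ch+ and ch-. With a replicate block that matched them by the order of their title numbers, an alternative chosen after seeing the data, 0 members were called in early ch+ against early ch-, pooled or in either line, as without it. Deviations from the group means of the libraries so matched correlated at -0.02 to 0.05 across genes, and 3 of 6 ch+ libraries correlated best with their own match, which gives no sign of these pairs. No other matching was fitted, so this check cannot show that the libraries are unpaired. The table gives no depth per library, so what depth limits was not assessed.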
